A study of Mus musculus with 4 samples.

Results

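Integrin and laminin subunits were the subject of this comparison: the cell-surface receptors for extracellular matrix and a family of matrix proteins that many of them bind. Members were chosen by a rule on gene names that uses no measured value, as the protein-coding genes of the integrin α and β families and of the laminin α, β and γ chains. A single β subunit was left out and is not analysed here. The rule found 36 of the 54532 genes in the table. Of these, 25 were integrin genes (18 α and 7 β) and 11 were laminin genes (5 α, 3 β and 3 γ).

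An integrin is a pair of an α and a β subunit, each crossing the membrane once, and the α subunit largely sets which matrix protein is bound. Itgb1 is the β partner of most α subunits, whereas Itgb2 and Itgb7 are partners used mainly by blood cells. A laminin is a cross-shaped trimer of an α, a β and a γ chain that builds basement membranes around vessels, nerves, muscle fibres and epithelia. Periosteal cells lie in fibrous tissue rich in collagen, where integrins that bind collagen and fibronectin anchor cells to matrix.

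Bulk RNA sequencing compared periosteal cells of Sfrp4-/- mice with those of WT mice, and the study's question was what loss of Sfrp4, a gene for a secreted Wnt-binding protein, does to these cells. There were 2 Sfrp4-/- and 2 WT libraries, each from cells pooled from 3 mice aged 4 weeks. All mice carried Cre recombinase driven by Ctsk and the mTmG reporter, which makes cells with a history of Ctsk expression green. Cells from long bones were sorted as GFP-positive and CD200-positive, without CD45, CD31, Ter119, Thy1.2, 6C3 or CD105. Since mice were pooled, p-values measure the spread between pools and not between animals, and each genotype had only 2 pools. Because the libraries are bulk, fewer cells of a type and less RNA per cell cannot be told apart. Ctsk is also a gene of osteoclasts, so the driver is not limited to stem cells.

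The libraries held 17119332 to 18750003 counts, of which the 36 genes took 0.0436% to 0.0756%. Sfrp4 itself was at 11.4 and 12.1 CPM in Sfrp4-/- libraries, against 90.8 and 108 CPM in WT libraries. CPM is the count divided by the library total, scaled by a composition factor (TMM), times 1e6. Ctsk was between 1055 and 2050 CPM, Cd200 between 442 and 669 CPM and the mesenchymal factor gene Prrx1 between 68.8 and 77.8 CPM in the 4 libraries. Ptprc, encoding CD45, was at 9.45 and 6.81 CPM in Sfrp4-/- and at 5.87 and 8.51 CPM in WT libraries, and 21 of 22 leukocyte markers had counts. Summed endothelial markers were at 6.26 and 4.82 CPM in Sfrp4-/- libraries, against 29.2 and 1.69 CPM in WT libraries, so that WT replicate 1 stood apart.

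No integrin or laminin gene passed the test between genotypes. Lamc3, Itga10 and Itga11 had the lowest p among genes with lower levels in Sfrp4-/- cells, and Lama4 had the lowest p among genes with higher levels. Of the 36 genes, 25 had enough counts to enter edgeR's quasi-likelihood test over all 13737 tested genes, and each had a Benjamini-Hochberg adjusted p of 1.00. That test called 0% of all genes, and even Sfrp4 missed its threshold (edgeR adjusted p = 0.377). Lamc3 alone had an unadjusted p under 0.05 (edgeR unadjusted p = 0.0392), in a direction in which 0.706% of all tested genes did. DESeq2 called 0 of these genes and 0.0322% of all genes it tested, with an unadjusted p under 0.05 for Lamc3 and Itga2b among 429 genes in all. A fit with the replicate number as a block called 0 of these genes and 0.00728% of all, a single gene. limma-voom called 0 of all genes, with an unadjusted p under 0.05 for 269 genes, 0 of them integrin or laminin genes.

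Log2 fold changes, taken throughout as Sfrp4-/- minus WT, were above 0 for 10 genes and below 0 for 15, with a median of -0.24 against 0.0031 over all tested genes. The 18 tested integrin genes had a median of -0.11 and the 7 tested laminin genes a median of -0.90. The laminin median was -0.079 without WT replicate 1 and -0.36 without Sfrp4-/- replicate 2. The integrin median was 0.086 without WT replicate 1, -0.054 without Sfrp4-/- replicate 2, -0.32 without Sfrp4-/- replicate 1 and -0.47 without WT replicate 2. With library totals alone as the scale, the integrin median was 0.13 beside an all-gene median of 0.24, so its sign depends on the scaling. Both Sfrp4-/- libraries lay below both WT libraries in 6 of the 25 genes (24.0%, against 12.6% of all tested genes). These included Itga3, Itga6, Itga10, Lama2 and Lamc3. With library totals alone as the scale, the groups overlap for Itga10 and Lama2. Both Sfrp4-/- libraries lay above in 1 gene, Lama4 (4.00%, against 15% of all tested genes). In either direction the groups stood apart in 28% of the tested members and in 27.5% of all tested genes.

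**Figure D1:**
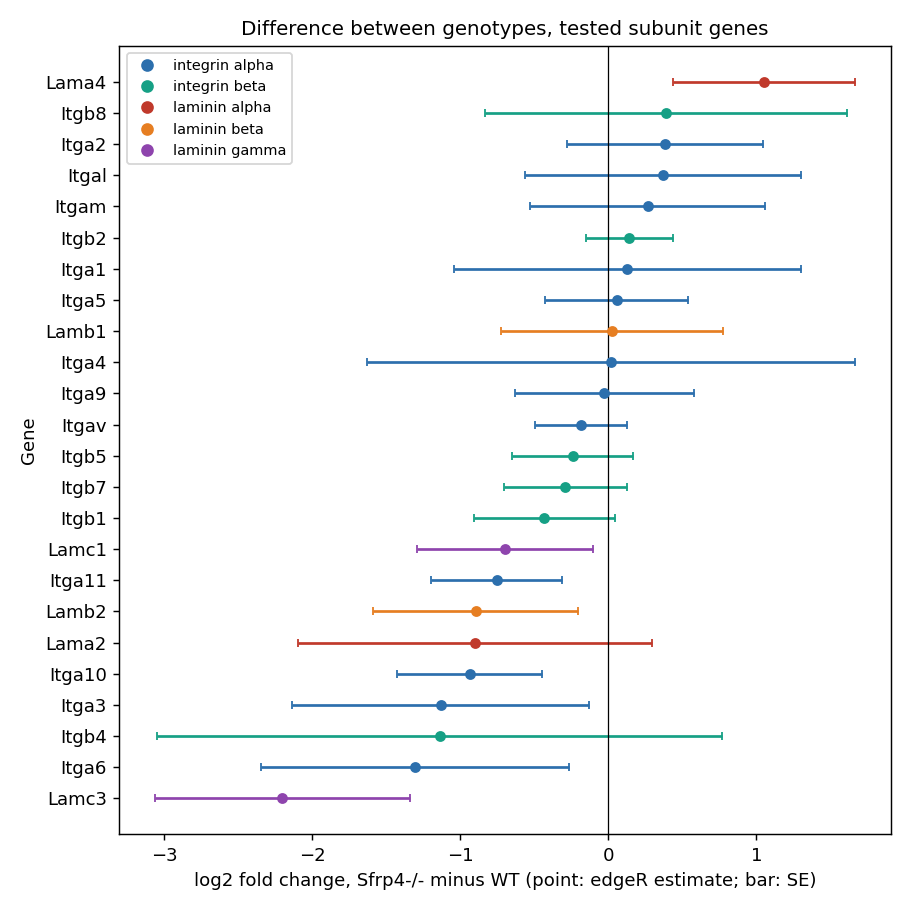
Log2 fold change (x axis, Sfrp4-/- minus WT, edgeR) of the tested integrin and laminin genes described here (y axis), with bars of 1 standard error and colours for the subunit class. Lama4 at 1.05 and Lamc3 at -2.20 mark the ends, and most bars cross 0.

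The β subunits set the scale of integrin expression. Itgb1, Itgb5 and Itgb2 held the first 3 places among the 36 genes when levels were expressed per length, as CPM per kb of gene. Itgb1 (ENSMUSG00000025809, plus strand of chromosome 8, 128685654 to 128733200, mm10), the common partner, had 92.2 and 39.1 CPM per kb in Sfrp4-/- libraries, against 107 and 70.4 CPM per kb in WT libraries. Itgb5 (ENSMUSG00000022817, plus strand of chromosome 16, 33829665 to 33949338), which pairs with the αv subunit in a vitronectin receptor, had 42.1 and 21.9 CPM per kb in Sfrp4-/- libraries, against 44.9 and 30.6 CPM per kb in WT libraries. In both genes replicate 1 exceeded replicate 2 in each genotype, and the groups overlapped.

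The sequences before the start sites of these abundant genes are shown because Itgb1 and Itgb5 lead the integrin genes and Lamb2 leads the laminin genes. They are RefSeq sequences (GRCm38.p6, the assembly that mm10 denotes), 5′ to 3′ on the plus strand, in lower case with matches to the GC box GGGCGG or its reverse complement CCGCCC in capitals.
Itgb1, chr8:128685404-128685653: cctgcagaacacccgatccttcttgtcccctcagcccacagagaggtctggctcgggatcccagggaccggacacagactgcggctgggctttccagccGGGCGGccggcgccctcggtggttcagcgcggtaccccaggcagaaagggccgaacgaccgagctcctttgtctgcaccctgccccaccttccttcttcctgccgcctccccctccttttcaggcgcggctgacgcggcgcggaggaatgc
Itgb5, chr16:33829415-33829664: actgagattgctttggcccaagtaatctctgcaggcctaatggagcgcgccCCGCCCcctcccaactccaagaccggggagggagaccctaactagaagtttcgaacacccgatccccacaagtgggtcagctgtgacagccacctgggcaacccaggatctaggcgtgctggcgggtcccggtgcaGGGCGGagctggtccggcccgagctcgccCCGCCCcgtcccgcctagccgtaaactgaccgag
Lamb2, chr9:108479612-108479735: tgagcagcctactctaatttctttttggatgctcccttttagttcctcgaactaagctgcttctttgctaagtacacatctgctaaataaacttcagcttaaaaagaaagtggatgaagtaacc
The Itgb1 window holds 1 such match and the Itgb5 window 3. The Lamb2 window, printed up to the first base of the gene, holds 0. Over windows of 250 bases, a GC box stands in 9 of the 26 promoters listed for 23 of the 36 genes (34.6%) and in 32.7% of all 32851 listed promoters. TATAAA or its reverse complement TTTATA, which share no base with a GC box, stand in 0 of the 26 and in 12.4% of all. Median GC content is 58.0% in the 26 promoters and 52.4% in all.

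In CPM, Itgb1 averaged 268 ± 153 in Sfrp4-/- and 361 ± 105 in WT libraries (SD, n = 2 each), and its log2 fold change was -0.43 ± 0.48 (SE). Itgb5 averaged 114 ± 50.7 CPM in Sfrp4-/- and 134 ± 35.9 CPM in WT libraries (SD, n = 2 each), with -0.24 ± 0.41. Both differences are smaller than the spread within a genotype. Leaving out Sfrp4-/- replicate 2 gave 0.069 for Itgb1 and 0.17 for Itgb5, and leaving out WT replicate 1 gave -0.093 for Itgb1 and 0.068 for Itgb5. The level of Itgb5 relative to Itgb1 inside a library was 0.456 and 0.559 in Sfrp4-/- libraries, against 0.421 and 0.435 in WT libraries.

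Itgb2 and Itgb7, β subunits of leukocyte integrins, were also measured in these CD45-negative sorts. Itgb2 (ENSMUSG00000000290, plus strand of chromosome 10, 77530252 to 77565708) was at 38.3 and 30.5 CPM in Sfrp4-/- libraries, against 30.1 and 32.1 CPM in WT libraries. Its log2 fold change was 0.14 ± 0.29, and it was -0.03 without Sfrp4-/- replicate 1. Itgb7, the partner of α4 and αE, was at 12.6 and 7.05 CPM in Sfrp4-/- libraries, against 10.4 and 13.6 CPM in WT libraries (log2 fold change -0.29 ± 0.42, and 0.082 without Sfrp4-/- replicate 2). The groups overlapped for both. Summed leukocyte markers were at 1330 and 1894 CPM in Sfrp4-/- and at 680.0 and 1621 CPM in WT libraries, and summed osteoclast markers at 3910 and 3614 CPM in Sfrp4-/- and at 2980 and 3503 CPM in WT libraries. Their part in the Itgb2 and Itgb7 levels was not tested.

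The other β subunits were scarce. Itgb4, the epithelial partner of α6, had 2 and 13 counts in Sfrp4-/- libraries and 25 and 0 counts in WT libraries. Itgb8, which with αv can activate latent TGF-β, had 5 and 41 counts in Sfrp4-/- libraries and 11 and 17 counts in WT libraries. For both, the libraries of 1 genotype differed more than the genotypes did. Itgb6, an epithelial subunit, had 0 counts in all 4 libraries.

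**Figure D2:**
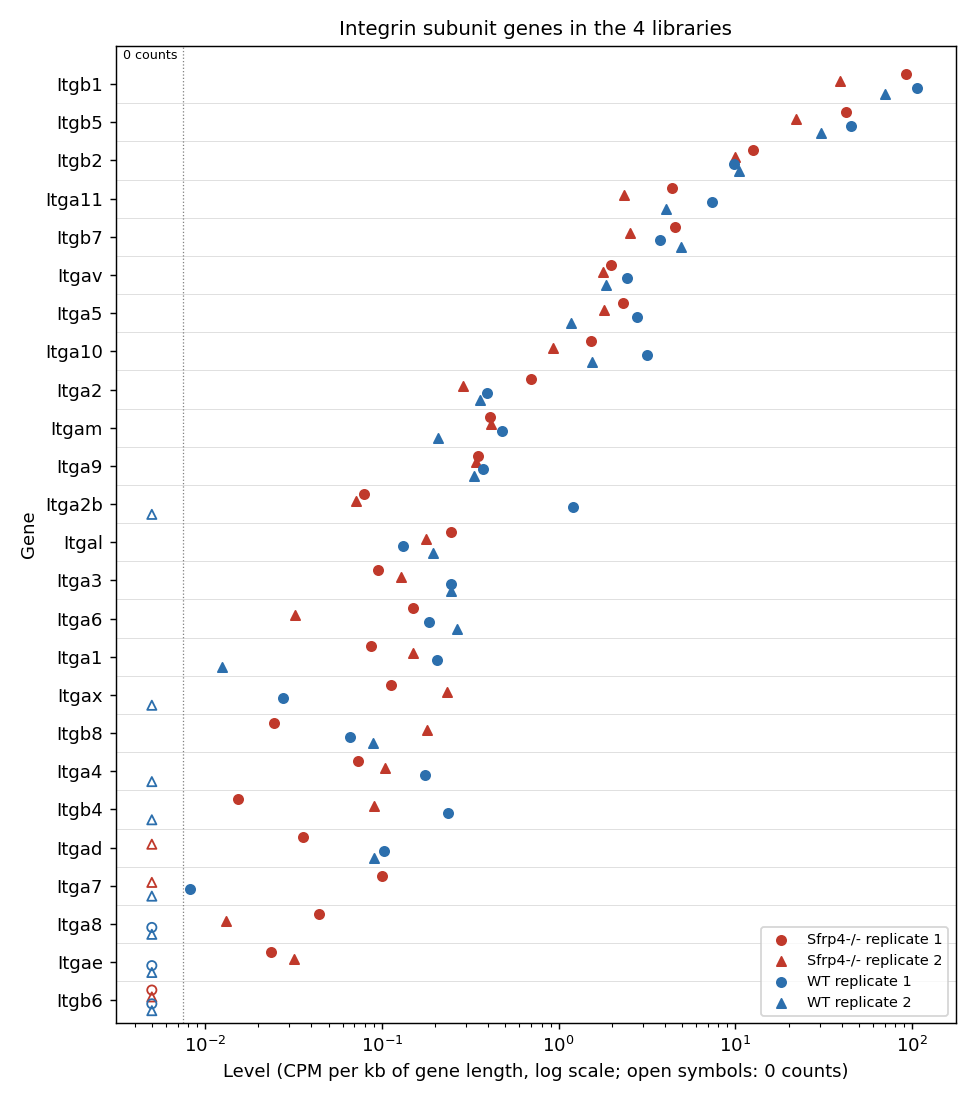
Level of the 25 integrin genes (y axis, ordered by mean) in CPM per kb of gene length on a log axis, in each Sfrp4-/- (red) and WT (blue) library, with circles for replicate 1 and triangles for replicate 2; open symbols mark 0 counts. Levels run from 107 CPM per kb for Itgb1 in WT replicate 1 to 0 counts for Itgb6 in every library.

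Of the α subunits that bind collagen, Itga10 and Itga11 had the lowest p among all integrin genes, both with lower values in Sfrp4-/- cells. Itga11 (ENSMUSG00000032243, plus strand of chromosome 9, 62677826 to 62783982), a receptor for fibrillar collagen on fibroblasts and other mesenchymal cells, was the most abundant α subunit per length. It was at 22.6 and 12.02 CPM in Sfrp4-/- libraries, against 37.6 and 20.7 CPM in WT libraries. The highest Sfrp4-/- library lay above the lowest WT library, so the groups overlapped narrowly. Means were 17.3 ± 7.46 CPM in Sfrp4-/- and 29.2 ± 11.96 CPM in WT libraries (SD, n = 2 each). The log2 fold change was -0.75 ± 0.44, or 0.593-fold.

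Itga10 (ENSMUSG00000090210, plus strand of chromosome 3, 96645584 to 96664519), a collagen receptor best known from chondrocytes, was at 7.88 and 4.82 CPM in Sfrp4-/- libraries, against 16.3 and 7.99 CPM in WT libraries. The groups did not overlap with TMM scaling, though Sfrp4-/- replicate 1 and WT replicate 2 nearly met. These 2 libraries had 146 of 18750003 and 137 of 17669306 counts, so by library totals alone the groups overlap. Means were 6.35 ± 2.17 CPM in Sfrp4-/- and 12.2 ± 5.91 CPM in WT libraries (SD, n = 2 each), with a log2 fold change of -0.94 ± 0.49. Unadjusted p-values from edgeR were 0.0983 for Itga10 and 0.135 for Itga11. Without any single library the log2 fold change stayed below 0, from -1.37 to -0.33 for Itga10 and from -1.28 to -0.25 for Itga11. Of the annotated exon bases of Itga10, 33.5% are shared with a predicted gene on the same strand.

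Summed chondrocyte markers put the libraries in the same order as Itga11, at 1115 and 401 CPM in Sfrp4-/- libraries and at 2577 and 781 CPM in WT libraries. All 10 had counts. Col11a2 made up most of each sum, at 906 and 319 CPM in Sfrp4-/- and 2133 and 644 CPM in WT libraries. Col2a1 was at 128 and 52.5 CPM in Sfrp4-/- and at 346 and 86.5 CPM in WT libraries. Of 9 tested markers, 7 had log2 fold changes below 0 and 2 above 0. Sox9 had another order, at 20.7 and 11.3 CPM in Sfrp4-/- and 12.3 and 8.04 CPM in WT libraries. Summed periosteal mesenchymal markers had the same order as Itga11, at 69015 and 30432 CPM in Sfrp4-/- and 114672 and 39806 CPM in WT libraries. Col1a1 made up most of each sum, at 64953 and 27190 CPM in Sfrp4-/- and 109955 and 35489 CPM in WT libraries. Alpl and Pdgfra shared this order, whereas Ctsk, Cd200, Prrx1, Postn, Runx2, Sp7 and Pdgfrb had other orders. Of these 10 tested markers, 5 had log2 fold changes above 0 and 5 below 0. The part of RNA from these cell types in the Itga10 and Itga11 values was not tested. Relative to Itga11, Itga10 stood at 0.346 and 0.397 in Sfrp4-/- libraries, against 0.430 and 0.382 in WT libraries, so the balance between these receptors overlapped between genotypes.

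The other collagen receptors were low. Itga2 was at 4.97 and 2.04 CPM in Sfrp4-/- libraries, against 2.80 and 2.57 CPM in WT libraries, with a log2 fold change of 0.38 ± 0.66 that was -0.39 without Sfrp4-/- replicate 1. Itga1 had 30 and 57 counts in Sfrp4-/- libraries, against 57 and 4 counts in WT libraries. The WT libraries enclosed the Sfrp4-/- libraries for Itga1, and WT replicate 1 was the library with the most endothelial marker RNA. Between the Sfrp4-/- libraries the orders were opposite, with Itga1 at 1.62 and 2.77 CPM and summed endothelial markers at 6.26 and 4.82 CPM. The part of endothelial RNA in the Itga1 counts was not tested.

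The α subunits that bind laminin were near the detection limit, and each tested one had a log2 fold change below 0. Itga6 had 25 and 6 counts in Sfrp4-/- libraries, against 25 and 41 counts in WT libraries, or 1.35 and 0.292 CPM against 1.67 and 2.39 CPM. Its log2 fold change was -1.30 ± 1.04, with -2.77 without Sfrp4-/- replicate 1 and -0.58 without Sfrp4-/- replicate 2. Itga3 was at 0.540 and 0.730 CPM in Sfrp4-/- libraries, against 1.40 CPM in both WT libraries (log2 fold change -1.13 ± 1.00). The groups did not overlap for either gene, and the standard errors are close to the size of the differences. Itga7, the laminin receptor of muscle, had 15 and 0 counts in Sfrp4-/- libraries and 1 and 0 counts in WT libraries and was not tested.

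Subunits that recognise the RGD motif of fibronectin and vitronectin were the next most abundant α genes and lay close together in the genotypes. Itgav, the αv subunit, was at 21.1 and 19.3 CPM in Sfrp4-/- libraries, against 26.1 and 19.9 CPM in WT libraries. Its log2 fold change was -0.19 ± 0.31, and it was 0.053 with library totals alone and 0.027 without WT replicate 1. Itga5, the α subunit of the classical fibronectin receptor, was at 11.3 and 8.85 CPM in Sfrp4-/- libraries, against 13.6 and 5.83 CPM in WT libraries. The WT libraries enclosed the Sfrp4-/- libraries, and the log2 fold change was 0.057 ± 0.48, with 0.80 without WT replicate 1 and -0.44 without WT replicate 2. Itga8, a receptor for nephronectin, had 6 and 2 counts in Sfrp4-/- libraries and 0 in both WT libraries, which is at least 2.19-fold higher if the WT group is set at its limit of 3 counts in all.

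Itga2b, the platelet and megakaryocyte subunit αIIb, was an integrin gene seen mostly in a single library. It had 8 counts in each Sfrp4-/- library, against 98 and 0 counts in WT libraries, and did not pass the filter on low counts. Summed megakaryocyte and platelet markers were at 8.21 and 19.4 CPM in Sfrp4-/- libraries, against 28.6 and 16.96 CPM in WT libraries, and Pf4, encoding platelet factor 4, had 13 and 42 counts in Sfrp4-/- libraries, against 104 and 7 counts in WT libraries. The part of platelet RNA in the Itga2b counts was not tested. Without WT replicate 2, Itga2b was the integrin or laminin gene with the lowest adjusted p (edgeR adjusted p = 0.206).

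The α subunits of leukocyte integrins were low in all libraries and did not separate the genotypes among those tested. Itgam, the αM subunit of myeloid cells, was at 2.05 and 2.09 CPM in Sfrp4-/- libraries, against 2.40 and 1.05 CPM in WT libraries (log2 fold change 0.27 ± 0.79, and -0.22 without WT replicate 2). It shares 68.7% of its exon bases with a predicted gene on the same strand. Itgal, the αL subunit of lymphocytes and other leukocytes, was at 1.62 and 1.17 CPM in Sfrp4-/- libraries, against 0.867 and 1.28 CPM in WT libraries (log2 fold change 0.37 ± 0.93). Leaving out single libraries gave 0.12 without Sfrp4-/- replicate 1 or WT replicate 1, 0.60 without Sfrp4-/- replicate 2 and 0.67 without WT replicate 2.

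Among leukocyte α genes too low to test, Itgax, a subunit of dendritic cells and macrophages, had 10 and 23 counts in Sfrp4-/- libraries, against 2 and 0 counts in WT libraries. Itgad had 3 and 0 counts in Sfrp4-/- libraries and 7 in each WT library, and Itgae had 2 and 3 counts in Sfrp4-/- libraries and 0 in both WT libraries. These counts did not all lie on the same side. Itga9, which binds tenascin and VCAM1, was the steadiest gene, at 2.70 and 2.63 CPM in Sfrp4-/- libraries and 2.87 and 2.57 CPM in WT libraries. Its log2 fold change was -0.028 ± 0.60, and 0.21 with library totals alone. Itga4, another VCAM1 receptor, had 19 and 30 counts in Sfrp4-/- libraries, against 37 and 0 counts in WT libraries.

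Laminin genes had summed levels of 8.62 and 3.97 CPM per kb in Sfrp4-/- libraries, against 15.8 and 5.71 CPM per kb in WT libraries. The summed integrin level was 19.05 and 20.8 times as high in the Sfrp4-/- libraries, and 11.7 and 22.2 times as high in the WT libraries. Most of the integrin sum came from Itgb1, Itgb5 and Itgb2. Without them the other 22 integrin genes averaged 0.786 and 0.530 CPM per kb a gene in Sfrp4-/- and 1.06 and 0.697 in WT libraries. The 11 laminin genes averaged 0.783 and 0.361 CPM per kb a gene in Sfrp4-/- and 1.43 and 0.519 in WT libraries, so that neither family was above the other in every library. Lama4, Lamb2 and Lamc1 were the leading α, β and γ chains in every library.

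Lama4 (ENSMUSG00000019846, plus strand of chromosome 10, 38965515 to 39110188), the α chain of vessel and mesenchymal basement membranes, was the only tested member whose Sfrp4-/- libraries both lay above the WT libraries. It was at 9.02 and 6.32 CPM in Sfrp4-/- libraries, against 5.60 and 1.81 CPM in WT libraries. Means were 7.67 ± 1.90 CPM in Sfrp4-/- and 3.70 ± 2.68 CPM in WT libraries (SD, n = 2 each). The log2 fold change was 1.05 ± 0.62, or 2.07-fold (edgeR unadjusted p = 0.133). The nearest Sfrp4-/- and WT libraries differed by less than the WT libraries did from each other. Left out in turn, single libraries moved the log2 fold change between 0.45 without WT replicate 2 and 2.09 without WT replicate 1. Summed Schwann cell markers put the 4 libraries in the same order as Lama4, at 11.6 and 7.98 CPM in Sfrp4-/- and 4.87 and 2.62 CPM in WT libraries, with counts for 6 of 8 and Foxd3 and Cdh19 at 0. Their part in the Lama4 values was not tested. Endothelial markers did not share this order: their sum was highest in WT replicate 1, and Cdh5 had 1 and 0 counts in Sfrp4-/- libraries and 23 and 0 counts in WT libraries. Summed mural cell markers were at 62.1 and 60.8 CPM in Sfrp4-/- and at 89.5 and 59.8 CPM in WT libraries.

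The remaining laminin α chains were scarce. Lama2, the chain of muscle and nerve, had 6 and 10 counts in Sfrp4-/- libraries, against 8 and 17 counts in WT libraries. Its groups did not overlap in CPM, at 0.324 and 0.486 in Sfrp4-/- and 0.534 and 0.991 in WT libraries (log2 fold change -0.90 ± 1.196, and -0.40 without WT replicate 2). By library totals alone, without the TMM factors, Sfrp4-/- replicate 2 lies above WT replicate 1. Lama3, the epithelial chain, had 3 and 6 counts in Sfrp4-/- libraries, against 5 and 12 counts in WT libraries. Lama1, a chain of early embryonic basement membranes, had 0 and 9 counts in Sfrp4-/- libraries and 2 and 0 counts in WT libraries. Lama5, found in many mature basement membranes, had 0 and 1 counts in Sfrp4-/- libraries and 3 and 0 counts in WT libraries.

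Of the β chains, Lamb2 (ENSMUSG00000052911, plus strand of chromosome 9, 108479736 to 108490530), a chain of neuromuscular, kidney and vessel basement membranes, was the most abundant laminin gene. It was at 36.1 and 14.2 CPM in Sfrp4-/- libraries, against 74.7 and 18.9 CPM in WT libraries. WT replicate 1 stood far above the rest, and the groups overlapped. Means were 25.1 ± 15.5 CPM in Sfrp4-/- and 46.8 ± 39.5 CPM in WT libraries (SD, n = 2 each), with a log2 fold change of -0.90 ± 0.69. Without WT replicate 1 it was 0.42. The bone collagen gene Col1a1 had the same order of libraries, at 64953 and 27190 CPM in Sfrp4-/- and 109955 and 35489 CPM in WT libraries. Summed erythroid markers put the libraries in the reverse order, at 2089 and 2656 CPM in Sfrp4-/- and 741 and 2161 CPM in WT libraries, although the sort removed Ter119-positive cells. All 11 had log2 fold changes above 0 (against 50.4% of all tested genes), with a median of 1.14. In 7 of them both Sfrp4-/- libraries lay above both WT libraries (63.6%, against 15% of all tested genes). In the edgeR test 0 passed. An unadjusted edgeR p under 0.05 was found for 5, in a direction in which 1.41% of all tested genes had it. The part of erythroid RNA in the Lamb2 values was not tested.

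Lamb1, the widely expressed β chain, was at 3.19 and 2.72 CPM in Sfrp4-/- libraries, inside the WT values of 4.53 and 1.28 CPM. Its log2 fold change was 0.026 ± 0.75, with 1.204 without WT replicate 1 and -0.62 without WT replicate 2. Lamb3, the epithelial chain, had 8 and 3 counts in Sfrp4-/- libraries and 5 and 24 counts in WT libraries. Summed epithelial markers were at 4.27 and 2.82 CPM in Sfrp4-/- and 1.80 and 8.28 CPM in WT libraries, with Krt8 and Krt14 at 0 counts in all. Epcam made up most of each sum, at 3.40 and 2.63 CPM in Sfrp4-/- and 1.40 and 8.28 CPM in WT libraries.

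Of the γ chains, Lamc1 and Lamc3 are described here, and both had log2 fold changes below 0. Lamc3 (ENSMUSG00000026840, plus strand of chromosome 2, 31887291 to 31946539), a chain of restricted tissue distribution, had 11 and 18 counts in Sfrp4-/- libraries, against 26 and 87 counts in WT libraries. In CPM it was at 0.594 and 0.876 in Sfrp4-/- libraries, against 1.73 and 5.07 in WT libraries. The groups did not overlap, and the WT libraries differed more from each other than the nearest libraries of the genotypes did. Means were 0.735 ± 0.199 CPM in Sfrp4-/- and 3.40 ± 2.36 CPM in WT libraries (SD, n = 2 each). The log2 fold change was -2.20 ± 0.86, or 0.218-fold. Without WT replicate 2 it was -1.24, and without WT replicate 1 it was -2.77 with the lowest adjusted p of any member in that fit (edgeR adjusted p = 0.214). Of its exon bases, 6.27% overlap a gene of the opposite strand, and the libraries keep no strand.

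Lamc1, the γ chain of most laminins, was at 10.9 and 3.94 CPM in Sfrp4-/- libraries, against 16.2 and 7.87 CPM in WT libraries. The groups overlapped, and the log2 fold change of -0.70 ± 0.59 was -0.13 without Sfrp4-/- replicate 2, -0.079 without WT replicate 1, -1.61 without Sfrp4-/- replicate 1 and -1.13 without WT replicate 2.

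**Figure D3:**
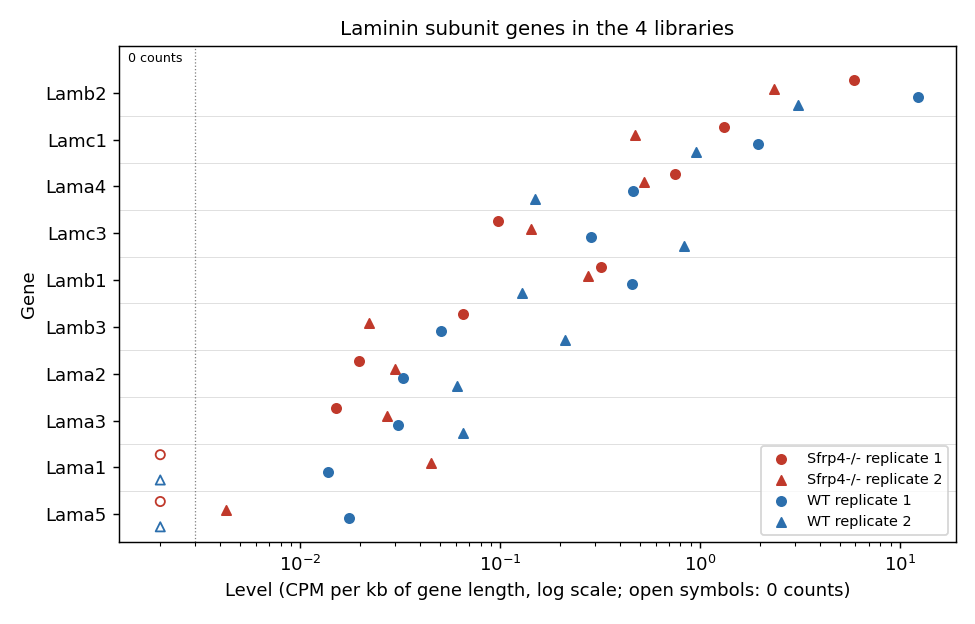
Level of the laminin genes described here (y axis, ordered by mean) in CPM per kb of gene length on a log axis, in each Sfrp4-/- (red) and WT (blue) library, with circles for replicate 1 and triangles for replicate 2; open symbols mark 0 counts. Lama4 is the gene with both Sfrp4-/- symbols to the right of both WT symbols, and Lamc3 shows the widest gap the other way.

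The make-up of each subunit class inside a library does not depend on how libraries are scaled against each other. Lama4 made up 95.5% and 83.1% of the laminin α level in Sfrp4-/- libraries, against 83.0% and 54.4% in WT libraries, without overlap by a narrow margin. The laminin α level relative to the laminin β level was 0.124 and 0.240 in Sfrp4-/- libraries, against 0.0437 and 0.0799 in WT libraries. Lama4 relative to Lamb2 alone was 0.126 and 0.224 in Sfrp4-/- libraries, against 0.0378 and 0.0482 in WT libraries. Both ratios were higher in each Sfrp4-/- library than in either WT library. With 2 libraries against 2, an exact two-sided permutation test cannot give a p under 0.333.

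Among integrin α genes, Itga11 held 34.7% and 26.5% of the level in Sfrp4-/- libraries, against 38.2% and 39.1% in WT libraries. Itga10 held 11.98% and 10.5% in Sfrp4-/- libraries, against 16.4% and 14.9% in WT libraries. Itga5 held 18.1% and 20.3% in Sfrp4-/- libraries, against 14.4% and 11.5% in WT libraries. These 3 shares did not overlap between the genotypes, with Itga11 and Itga10 lower and Itga5 higher in Sfrp4-/- libraries. The scarcer genes Itgal, Itgam, Itgax, Itga8 and Itgae also had higher shares without overlap, and Itgad a lower share. Itgal did so narrowly, at 1.94% and 2.01% in Sfrp4-/- and 0.688% and 1.89% in WT libraries. Itga8 and Itgae had few counts in Sfrp4-/- libraries and 0 in both WT libraries. For each of these shares, an exact two-sided permutation test cannot give a p under 0.333. The other collagen receptors overlapped. Itga2 held 5.49% and 3.24% in Sfrp4-/- and 2.05% and 3.49% in WT libraries. Itga1 held 0.687% and 1.69% in Sfrp4-/- and 1.07% and 0.122% in WT libraries. Shares of a whole are tied to each other, so a lower share of Itga11 raises the others. The share of Itgav overlapped, at 15.5% and 20.3% in Sfrp4-/- libraries and 12.7% and 17.9% in WT libraries.

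Itgb1 held 60.9% and 53.0% of the level of the 7 β genes in Sfrp4-/- libraries, against 64.5% and 60.4% in WT libraries. Itgb5 held 27.8% and 29.6% in Sfrp4-/- libraries, against 27.1% and 26.3% in WT libraries. The Itgb1 shares overlapped and the Itgb5 shares did not. Lamb2 held 88.7% to 96.0% of the laminin β level in the 4 libraries. Lamc1 held 86.9% and 67.0% of the laminin γ level in Sfrp4-/- libraries, against 81.0% and 47.9% in WT libraries, with Lamc3 at 41.9% in WT replicate 2.

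**Figure D4:**
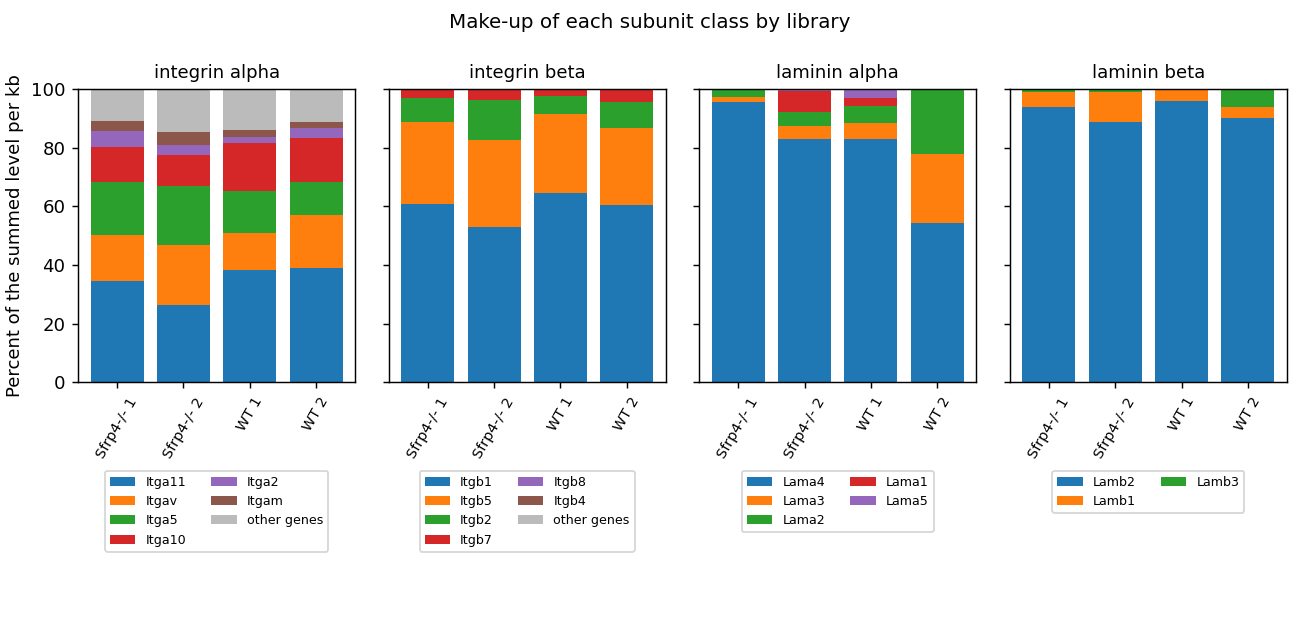
Percent of the summed level per kb (y axis) held by each gene within the integrin α and β and the laminin α and β classes, as stacked bars for the 2 Sfrp4-/- and the 2 WT libraries (x axis). Itgb1, Lamb2 and Lama4 lead their classes, Itga11 leads the α integrins, and the Lama4 share is lowest in WT replicate 2, at 54.4%.

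Genes that work with integrins and laminins were examined as 4 lists, and no gene of any list passed the edgeR test over all genes. Of 33 focal adhesion genes, which link integrins to actin, 32 were tested, with 17 above 0 (53.1%, against 50.4% of all tested genes). Their median log2 fold change was 0.023, which was -0.080 without WT replicate 2 and 0.28 with library totals alone (all genes 0.24). Both Sfrp4-/- libraries lay above both WT libraries in 8 of the 32 (25%, against 15% of all tested genes) and below in 1 (3.12%, against 12.6%). Tln2, a talin that activates integrins, was at 4.75 and 3.45 CPM in Sfrp4-/- libraries, against 2.27 and 0.874 CPM in WT libraries (log2 fold change 1.39 ± 0.71). Parvg, a parvin of blood cells, had 1.16 ± 0.66, and the adhesion adaptor gene Tns3 had 0.92 ± 0.53. The groups did not overlap for these 3 genes.

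Basement membrane genes other than laminins had a median of -0.58, with 12 of 15 tested genes below 0 out of 23 listed. Of the 15, 20.0% were above 0, against 50.4% of all tested genes. The median was 0.043 without WT replicate 1, -1.37 without Sfrp4-/- replicate 1, -0.32 without Sfrp4-/- replicate 2 and -1.20 without WT replicate 2. Smoc2, a matricellular protein, was at 194 and 78.9 CPM in Sfrp4-/- libraries, against 364 and 247 CPM in WT libraries (log2 fold change -1.16 ± 0.48). Agrn, encoding agrin, was at 4.21 and 2.87 CPM in Sfrp4-/- libraries, against 10.2 and 4.72 CPM in WT libraries (-1.07 ± 0.55). Both were lower without overlap, whereas Col4a1, a chain of basement membrane collagen, overlapped at 3.13 and 1.41 CPM in Sfrp4-/- and 8.80 and 2.86 CPM in WT libraries. The groups stood apart in 26.7% of the 15 genes, against 27.5% of all tested genes. In 13 of the 15 genes replicate 1 exceeded replicate 2 in both genotypes, which held for 12 of the 25 integrin and laminin genes (48.0%) and 32.8% of all tested genes.

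Ligands of integrins had a median of -0.21, with 16 of 23 tested genes below 0 out of 26 listed. Of the 23, 30.4% were above 0, against 50.4% of all tested genes. Without Sfrp4-/- replicate 2 the median was 0.10, and without WT replicate 1 it was 0.059, against -1.05 without Sfrp4-/- replicate 1 and -0.58 without WT replicate 2. Thbs1, encoding thrombospondin 1, was at 70.3 and 38.7 CPM in Sfrp4-/- libraries, against 209.5 and 72.7 CPM in WT libraries (log2 fold change -1.37 ± 0.56). Vcam1, the ligand of α4 and α9 integrins, was at 16.8 and 16.5 CPM in Sfrp4-/- libraries, against 7.60 and 11.1 CPM in WT libraries (0.83 ± 0.35). Both stood apart from WT, in opposite directions. The groups stood apart in 13% of the 23 genes, against 27.5% of all tested genes. The fibrillar collagen gene Col5a2 had -1.11 ± 0.67, with overlap.

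Membrane partners of integrins, mainly tetraspanins, had a median of -0.27, with 8 of 10 tested genes below 0. Of the 10, 20.0% were above 0, against 50.4% of all tested genes. The median was -0.032 without Sfrp4-/- replicate 2, -0.41 without Sfrp4-/- replicate 1 and -0.063 with library totals alone. Cd151, the tetraspanin of laminin-binding integrins, was at 3.67 and 4.04 CPM in Sfrp4-/- libraries, against 5.54 and 5.48 CPM in WT libraries (log2 fold change -0.51 ± 0.46). The leukocyte tetraspanin gene Cd37 was at 9.02 and 13.6 CPM in Sfrp4-/- libraries, against 8.40 and 7.17 CPM in WT libraries (0.54 ± 0.39). Both separated the genotypes by libraries, while Cd81 did not (-0.56 ± 0.41). The groups stood apart in 30% of the 10 genes, against 27.5% of all tested genes.

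Differences between the pools of a genotype exceeded those between genotypes for Itgb1, Lamb2 and Lamc1. Replicate 1 exceeded replicate 2 in both genotypes for Itgb1, by 2.36-fold in Sfrp4-/- and 1.52-fold in WT libraries. For Lamb2 it did so by 2.54-fold in Sfrp4-/- and 3.95-fold in WT libraries, and for Lamc1 by 2.77-fold in Sfrp4-/- and 2.06-fold in WT libraries. Of the 25 tested genes, 10 had the same sign of log2 fold change with each of the 4 libraries left out in turn. These included Itga3, Itga6, Itga10, Itga11, Lama2, Lamc1 and Lamc3 below 0 and Itgal and Lama4 above 0. The other 15 changed sign without at least 1 library.

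**Figure D5:**
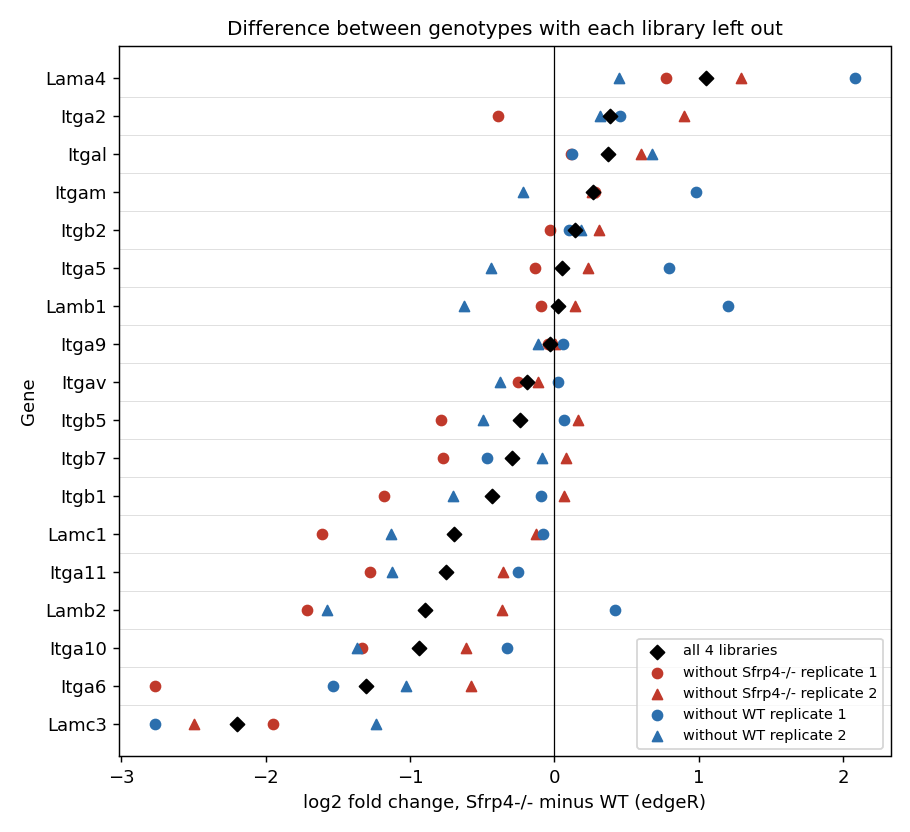
Log2 fold change (x axis, Sfrp4-/- minus WT, edgeR) of 18 integrin and laminin genes (y axis) from all 4 libraries (diamonds) and with a single Sfrp4-/- (red) or WT (blue) library left out. Lamc3 lies at -1.24 or lower and Lama4 at 0.45 or higher in each fit, whereas Lamb2 is at 0.42 without WT replicate 1 and at -0.90 with all libraries.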

How the data were processed

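Per the labels' protocols, collagenase-digested periosteum was sorted and non-directional mRNA libraries were made from ultra-low input with a SMARTer kit. The table deposited by the authors holds unnormalized whole-number counts, with gene lengths and mm10 coordinates. The tools named in the submitters' processing notes are featureCounts 1.00-p3, DESeq2 1.20.0, HISAT2 2.0.5 and CASAVA. What each did, the counting options and the annotation: not given in the sources used here. All 36 genes had the same coordinates in GENCODE M21.

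Groups and replicate numbers came from sample titles. No pair of libraries was alike within counting error: chi-square over its degrees of freedom was 51.7 to 229.6. Counts were tested with edgeR 4.0.16 in R 4.3.3: filterByExpr, TMM factors (0.989 and 1.19 in Sfrp4-/-, 0.877 and 0.972 in WT), glmQLFit and glmQLFTest with genotype alone, and Benjamini-Hochberg adjustment over 13737 genes at 0.05. The test was tested on simulated data. Standard errors are the log2 fold change divided by the root of F. Levels per kb use the deposited gene length and assume even coverage. A single count was worth 0.0486 to 0.0667 CPM, and floors cover counting error only. Of the 36 genes, 11 did not pass the filter. Full statistics were given for the 16 tested genes with the highest mean CPM per kb and the 5 in each direction with the lowest p, and 3 genes of each list by p; values of the others are given more briefly. The values of 1 tested gene are not reported here; it stays in the counts and medians over members. The rule for members uses names only, but the choice of this gene family, like that of the lists, was made with earlier results of these data known. Alternatives used DESeq2 1.42.0, limma-voom (limma 3.58.1), RLE factors, library totals, other filters, protein-coding genes only, a replicate block and each library left out.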

Additional observations from a re-analysis of the deposited data

How the results depend on the processing

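In each of the 12 alternative fits, and at an adjusted p under 0.10 in the reported fit, 0 integrin or laminin genes passed. Over all genes, 0 passed in the edgeR fit reported, 20 without a filter on low counts, 7 with DESeq2, 1 with the replicate block, and 2 to 7 with a library left out. The number of members above 0 was 10, against 3 with a minimum of 5 CPM in 2 libraries, where fewer genes were tested, and 7 to 17 with a library left out. The integrin median was -0.11 and ranged from -0.47 (without WT replicate 2) to 0.086 with a library left out, and the laminin median was -0.90 and ranged from -1.05 to -0.079 (without WT replicate 1); the cause was not tested. Sfrp4 passed with DESeq2 (log2 fold change -3.09, adjusted p = 2.58e-12) and with the replicate block (edgeR log2 fold change -3.07, adjusted p = 0.0218).

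Direction turned with library totals alone for Itga9 (0.21) and Itgav (0.053), with limma-voom for Itgb4 (0.65) and Itgb8 (-0.12), and with the replicate block for Itgb8 (-0.13). With single libraries left out, log2 fold changes ran from -0.80 to 3.20 for Itga1, -0.39 to 0.90 for Itga2, -0.99 to 7.55 for Itga4, -0.44 to 0.80 for Itga5, -0.11 to 0.058 for Itga9, -0.22 to 0.98 for Itgam, -0.38 to 0.027 for Itgav, -1.18 to 0.069 for Itgb1, -0.030 to 0.31 for Itgb2, -2.85 to 5.83 for Itgb4, -0.79 to 0.17 for Itgb5, -0.77 to 0.082 for Itgb7, -1.64 to 1.203 for Itgb8, -0.62 to 1.204 for Lamb1 and -1.72 to 0.42 for Lamb2. The highest values for Itga4 and Itgb4 are set against a WT library with 0 counts and depend on the prior count. Each such fit has 1 library of a genotype and borrows the spread from the other genotype.

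The labels do not say that a replicate number marks a shared batch, and 2 pairs cannot show it. The difference of replicate 1 minus replicate 2 correlated between genotypes across genes (Pearson r = 0.256), where genes are not independent. With the replicate block, 6 members had an unadjusted p under 0.05 (Itga10, Itga11, Itgb1, Lama4, Lamb2 and Lamc3), against 1 without it; over all 13737 genes the number was 864 with the block and 291 without it. The lowest edgeR adjusted p among members with the block was 0.730. Counts limit the 11 genes that were not tested.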
